A study of Mus musculus with 12 samples.

Results

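The BCL2 family genes described here are 10 genes that decide whether a cell keeps its mitochondria intact or enters apoptosis, followed in CD4+ T cells of mouse spleen. They were chosen by name, with earlier results of these data known. All 10 had a row among the 23479 gene symbols of every count table and passed the filter on low counts that left 10981 genes. They are the anti-apoptotic genes Bcl2, Bcl2l1, Mcl1, Bcl2a1b and Bcl2a1d, the BH3-only genes Bcl2l11, Bbc3 and Pmaip1, and the effector genes Bax and Bak1. The cells came from wild-type C57BL/6J mice (WT) or from Sirt2-/- mice of C57BL/6 background (KO), mutant for both copies of the gene of the NAD-dependent deacetylase SIRT2. The cells were enriched by negative selection, and RNA was taken at once (0 h, called naive in the labels) or after 24 h in culture on plate-bound antibody against CD3. The 12 libraries formed 4 groups of 3, the genotypes WT and KO at 0 h and at 24 h. Untreated cells kept in culture for 24 h were not analysed here, so the effects of the antibody and of culture cannot be told apart. The labels do not name the part of Sirt2 that was removed, the age of the mice, or whether replicates came from separate mice. So the spread that the p-values rest on is that between libraries and may be purely technical.

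In the intrinsic pathway of apoptosis, the effectors BAX and BAK form pores in the outer mitochondrial membrane, cytochrome c escapes, and caspases are activated. BCL2 and its anti-apoptotic relatives hold the effectors in check, and BH3-only proteins bind into a groove of these relatives and so release or activate the effectors. In T cells BCL2 and MCL1 are known to keep resting cells alive, BCL-XL and A1 are known as genes switched on by antigen receptor signals, and BIM, the product of Bcl2l11, is known for the removal of activated T cells.

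Each library held between 3.63 and 10.0 megareads in genes, and KO 24 h was the shallowest group (4.61 ± 0.881 megareads, SD, n = 3). In CPM, the read counts relative to TMM-scaled library size, Sirt2 lay between 9.03 and 19.6 CPM in the 6 KO libraries and between 62.2 and 85.3 CPM in the 6 WT libraries. All 9 T cell markers in the tables were read in every group, and their summed level was 7168 to 8372 CPM at 0 h and 3225 to 3697 CPM at 24 h. Markers of other cells were low. Summed over the marker list, B cell markers lay between 2.93 and 30.7 CPM, myeloid markers between 3.98 and 27.8 CPM, and NK cell markers between 10.6 and 79.2 CPM. The 5 erythroid markers had no read in any library.

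Bcl2a1b and Bcl2a1d need a word on sequence before their values. Both lie on chromosome 9 and encode A1, and mouse has further copies, Bcl2a1a and Bcl2a1c. Their coding sequences of 516 bases differ at 6 positions (98.8% identical). The start of the first coding exon is shown for both, because it shows how few bases tell the copies apart when a read is assigned. It lies at chr9:89199360-89199509 on the plus strand for Bcl2a1b and at chr9:88731570-88731719 on the minus strand for Bcl2a1d (GENCODE M21, GRCm38), and capitals mark the 3 bases at which the copies differ.
Bcl2a1b: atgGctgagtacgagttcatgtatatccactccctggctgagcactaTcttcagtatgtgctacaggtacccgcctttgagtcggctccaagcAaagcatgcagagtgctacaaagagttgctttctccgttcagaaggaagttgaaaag
Bcl2a1d: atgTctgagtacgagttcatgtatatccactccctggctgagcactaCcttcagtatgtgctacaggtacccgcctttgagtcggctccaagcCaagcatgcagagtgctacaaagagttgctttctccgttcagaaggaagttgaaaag
Of all stretches of 50 bases in the Bcl2a1b transcript, 79.2% occur unchanged in a transcript of another gene, and the share is 79.5% for Bcl2a1d. It is 56.8% and 54.7% for stretches of 100 bases. The read length is not given in the sources used here. Reads that aligned in several places stood outside the gene rows, so the counts of these copies rest on the stretches that differ, and the split between them is uncertain. Part of the sharing is with Gm29094, a gene on the same strand that overlaps 49.1% of the Bcl2a1b exon bases. Bcl2a1a and Bcl2a1c had 1 read each over all 12 libraries. In Bcl2l1, Mcl1, Bbc3 and Pmaip1 no stretch of 50 bases was shared with another gene. Bak1 shared 17.1% of them, with Ggnbp1 on the opposite strand, and Bax shared 8.51%, with Gm45808 on the same strand. Bcl2 shared 5.25%, most often with its antisense transcript D630008O14Rik. Since no strand setting is given, reads of Bak1 and Bcl2 cannot be told from those of their antisense partners in the shared stretches.

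The promoters of Bcl2 and Bcl2l11 are shown because these genes had the smallest adjusted p-values over time. Both sequences are from RefSeq (GRCm38.p6) and run from 250 bases before to 50 bases after the start site. In the Bcl2 promoter, at chr1:106714241-106714540 on the minus strand, capitals mark the GC box GGGCGG on either strand. In the Bcl2l11 promoter, at chr2:128125788-128126087 on the plus strand, capitals mark the FOXO motif GTAAACA.
Bcl2: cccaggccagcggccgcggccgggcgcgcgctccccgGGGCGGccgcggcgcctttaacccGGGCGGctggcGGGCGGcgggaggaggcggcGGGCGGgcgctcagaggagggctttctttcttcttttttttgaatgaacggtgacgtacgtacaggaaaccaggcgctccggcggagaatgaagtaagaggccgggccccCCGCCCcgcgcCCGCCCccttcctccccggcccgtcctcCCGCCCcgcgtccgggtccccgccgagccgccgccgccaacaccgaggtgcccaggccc
Bcl2l11: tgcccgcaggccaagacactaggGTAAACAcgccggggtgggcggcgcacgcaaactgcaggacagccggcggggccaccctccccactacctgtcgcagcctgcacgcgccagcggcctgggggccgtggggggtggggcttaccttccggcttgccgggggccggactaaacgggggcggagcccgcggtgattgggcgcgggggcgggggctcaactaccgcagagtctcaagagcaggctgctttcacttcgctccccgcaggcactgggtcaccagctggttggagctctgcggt
The table of promoters held 14 windows of 9 of the 10 genes. The GC box, searched on both strands, stood in 10 of the 14 windows (7 of the 9 genes) and in 35.7% of all 32851 promoters. The FOXO motif stood in 2 of the 14 windows, those of Bcl2l11 and Bbc3, and in 3.65% of all promoters. The core bound by NFAT, GGAAAA on either strand, stood in 5 of the 14 windows and in 23.4% of all. These were windows of Bcl2l1, Bcl2a1b, Bcl2a1d and Bak1. The AP-1 motif TGACTCA and the STAT motif TTCNNNGAA were searched on both strands, stood in 5.20% and 8.30% of all promoters and had no match in the 14 windows. A match describes letters only and is no evidence of binding.

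**Figure D1:**
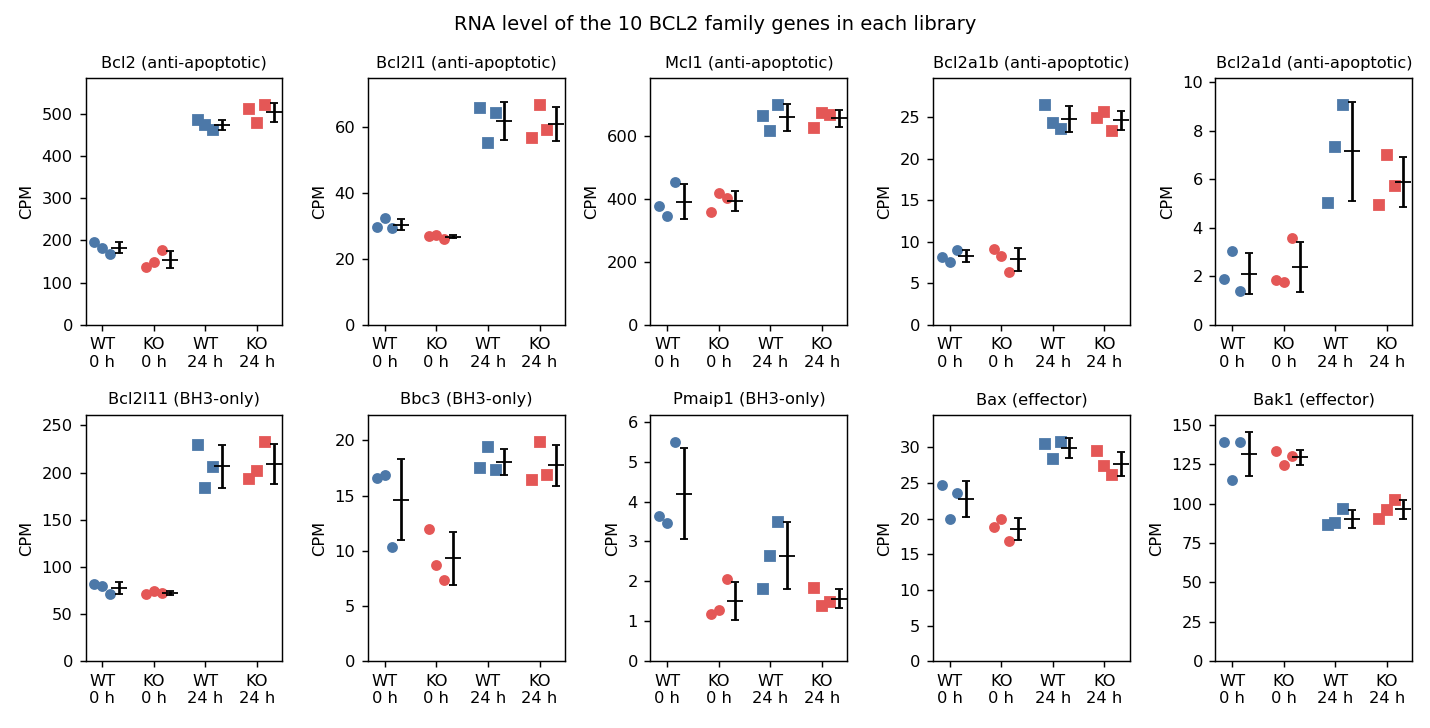
CPM (y axis from 0) of the 10 genes in each of 4 groups (x axis); each point is 1 library, and the bar beside the points is the mean with its SD (n = 3). Bcl2, Bcl2l1, Mcl1, Bcl2a1b, Bcl2a1d, Bcl2l11, Bbc3 and Bax lie higher at 24 h than at 0 h with no overlap in either genotype. Bak1 lies lower, also with no overlap.

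Over 24 h of stimulation RNA of all 5 anti-apoptotic genes rose in WT and in KO cells, and so did that of the BH3-only gene Bcl2l11 and of the effector gene Bax. Bak1 fell. By edgeR's quasi-likelihood test, with an adjusted p (Benjamini-Hochberg over all genes) below 0.05, 7 of the 10 genes were higher and 1 lower in WT, and 8 were higher and 1 lower in KO. Of all genes tested 20.2% were higher and 20.5% lower in WT, and 19.4% were higher and 21% lower in KO, so 40.7% and 40.4% of the genes passed in either direction. The groups did not overlap between times in 9 of the 10 genes in each genotype, against 49.3% of all genes in WT and 49.4% in KO. The median log2 fold change of the 10 genes was 0.89 in WT and 1.04 in KO, and that of all genes was 0.00 in both (0.0027 and -0.0028). Since the 10 genes were chosen with earlier results of these data known, their shares and medians are a description. The levels are shares of the RNA in each library. In such bulk samples, fewer cells of a type and less RNA per cell cannot be told apart.

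Lists used as measures of cell mixture and handling moved over the same 24 h, where mixture, handling and stimulation cannot be told apart. The summed B cell markers had a range of 21.1 to 30.7 CPM before and of 5.02 to 7.03 CPM after stimulation in WT, and of 16.9 to 28.6 CPM and 2.93 to 7.21 CPM in KO. Of these 8 markers Ms4a1, Pax5 and Ebf1 had no read in KO 24 h. For the 9 myeloid markers the ranges were 15.3 to 27.8 CPM and 6.83 to 17.0 CPM in WT, and 19.8 to 22.8 CPM and 3.98 to 12.9 CPM in KO. For the 5 NK cell markers they were 46.4 to 51.6 CPM and 10.6 to 21.3 CPM in WT, and 63.7 to 79.2 CPM and 13.7 to 17.6 CPM in KO. Of 12 genes listed for RNA quality and stress of isolation, 9 fell and 2 rose in each genotype. Of the 9 T cell markers 7 fell in WT and 8 in KO. Rn45s, the ribosomal RNA precursor, held 14.5% ± 1.42 of gene reads before and 9.12% ± 0.416 after stimulation in WT, and 14.7% ± 2.51 and 8.03% ± 0.106 in KO (SD, n = 3). The part of these shifts in the changes of the BCL2 family was not tested.

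Bcl2, the founding anti-apoptotic gene, was the family member with the smallest adjusted p over time. WT libraries held 195, 183 and 169 CPM before and 484, 474 and 461 CPM after stimulation. KO libraries held 137, 149 and 177 CPM before and 511, 478 and 521 CPM after it. All 6 stimulated libraries lay above all 6 ex vivo libraries. The rise was 2.6-fold in WT (log2 1.38, SE 0.0885, edgeR adjusted p = 1.34e-17) and 3.27-fold in KO (log2 1.71, SE 0.0900, edgeR adjusted p = 1.07e-20). The difference between these rises, tested as the interaction of genotype and time, was 0.33 on the log2 scale (95% interval 0.08 to 0.58) and did not pass (edgeR adjusted p = 0.840).

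Mcl1 encodes a short-lived anti-apoptotic protein and had the most CPM of the 10 genes in every group. Its libraries stood at 376, 345 and 453 CPM before and 664, 615 and 700 CPM after stimulation in WT, and at 357, 419 and 404 CPM before and 627, 675 and 667 CPM after it in KO. Ex vivo and stimulated libraries did not overlap. It rose 1.68-fold in WT (log2 0.75, SE 0.0900, edgeR adjusted p = 2.07e-09) and 1.67-fold in KO (log2 0.74, SE 0.0903, edgeR adjusted p = 3.70e-09). These were the smallest rises among the anti-apoptotic genes.

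Bcl2l1 encodes BCL-XL. Its level stood at 29.6, 32.4 and 29.4 CPM before and 66.0, 55.4 and 64.2 CPM after stimulation in WT, and at 27.0, 27.2 and 26.1 CPM before and 56.9, 66.9 and 59.2 CPM after it in KO. The times did not overlap. It was 2.03-fold higher at 24 h in WT (log2 1.02, SE 0.126, edgeR adjusted p = 4.99e-09) and 2.27-fold higher in KO (log2 1.19, SE 0.130, edgeR adjusted p = 2.22e-10).

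The A1 copies had the largest fitted rises in WT, at much lower levels. Bcl2a1b stood at 8.13, 7.61 and 9.0 CPM before and 26.5, 24.3 and 23.6 CPM after stimulation in WT, and at 9.11, 8.22 and 6.39 CPM before and 24.9, 25.7 and 23.4 CPM after it in KO. Every stimulated library had more than every ex vivo library, and the rise was 2.99-fold in WT (log2 1.58, SE 0.198, edgeR adjusted p = 6.61e-09) and 3.07-fold in KO (log2 1.62, SE 0.202, edgeR adjusted p = 6.49e-09). Bcl2a1d rested on 11 to 65 reads per library and rose 3.40-fold in WT (log2 1.77, SE 0.404, edgeR adjusted p = 0.000379) and 2.52-fold in KO (log2 1.33, SE 0.415, edgeR adjusted p = 0.00836). Its libraries stood at 1.90, 3.04 and 1.38 CPM before and 5.02, 7.34 and 9.06 CPM after stimulation in WT, and at 1.82, 1.77 and 3.57 CPM before and 4.94, 6.98 and 5.72 CPM after it in KO. Since the sequences of the copies are so close, the split of this rise between them is uncertain.

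Bcl2l11, which encodes the BH3-only protein BIM, rose about as much as Bcl2 in WT. It stood at 82.2, 80.3 and 71.0 CPM before and 229, 184 and 206 CPM after stimulation in WT, and at 70.9, 74.8 and 72.0 CPM before and 193, 202 and 233 CPM after it in KO. Every stimulated library lay far above every ex vivo one in each genotype. The rise was 2.65-fold in WT (log2 1.41, SE 0.0978, edgeR adjusted p = 1.83e-16) and 2.88-fold in KO (log2 1.53, SE 0.0992, edgeR adjusted p = 2.05e-17).

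The BH3-only genes Bbc3 and Pmaip1 encode PUMA and NOXA and are known targets of the transcription factor p53. Bbc3 stood at 16.6, 16.9 and 10.4 CPM before and 17.5, 19.4 and 17.3 CPM after stimulation in WT, and at 12, 8.71 and 7.34 CPM before and 16.5, 19.9 and 16.9 CPM after it in KO. Its 0 h libraries spread more widely than its 24 h libraries, and the times did not overlap in either genotype. Over time it rose in KO (log2 0.90, SE 0.224, edgeR adjusted p = 0.00107) and did not pass in WT (log2 0.31, SE 0.211, edgeR adjusted p = 0.243). The difference between the genotypes in this change did not pass either (interaction log2 0.58, 95% interval -0.04 to 1.21, edgeR adjusted p = 0.952). Pmaip1 had few reads, 6 to 44 per library. It passed in neither genotype over time, with a log2 change of -0.65 in WT (95% interval -1.58 to 0.27, edgeR adjusted p = 0.267) and 0.09 in KO (95% interval -1.03 to 1.22, edgeR adjusted p = 0.914).

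The 2 effector genes moved in opposite directions. Bak1 stood at 139, 115 and 139 CPM before and 86.1, 87.5 and 96.4 CPM after stimulation in WT, and at 133, 124 and 130 CPM before and 90.1, 96.2 and 102 CPM after it in KO. No stimulated library reached the lowest ex vivo one. It fell by 0.54 on the log2 scale in WT (SE 0.0970, edgeR adjusted p = 1.04e-05), to 68.7% of the 0 h level, and by 0.43 in KO (SE 0.0983, edgeR adjusted p = 0.000419), to 74.4%. Bax stood at 24.7, 19.9 and 23.6 CPM before and 30.5, 28.3 and 30.8 CPM after stimulation in WT, and at 18.9, 20.0 and 16.9 CPM before and 29.4, 27.4 and 26.1 CPM after it in KO. Its stimulated libraries lay above the ex vivo ones, with a rise of 0.57 on the log2 scale in KO (SE 0.163, edgeR adjusted p = 0.00412) and of 0.39 in WT (SE 0.157, edgeR adjusted p = 0.0409). The call in WT was lost when WT 0 h replicate 2 or any WT 24 h replicate was left out, with a highest edgeR adjusted p of 0.146.

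**Figure D2:**
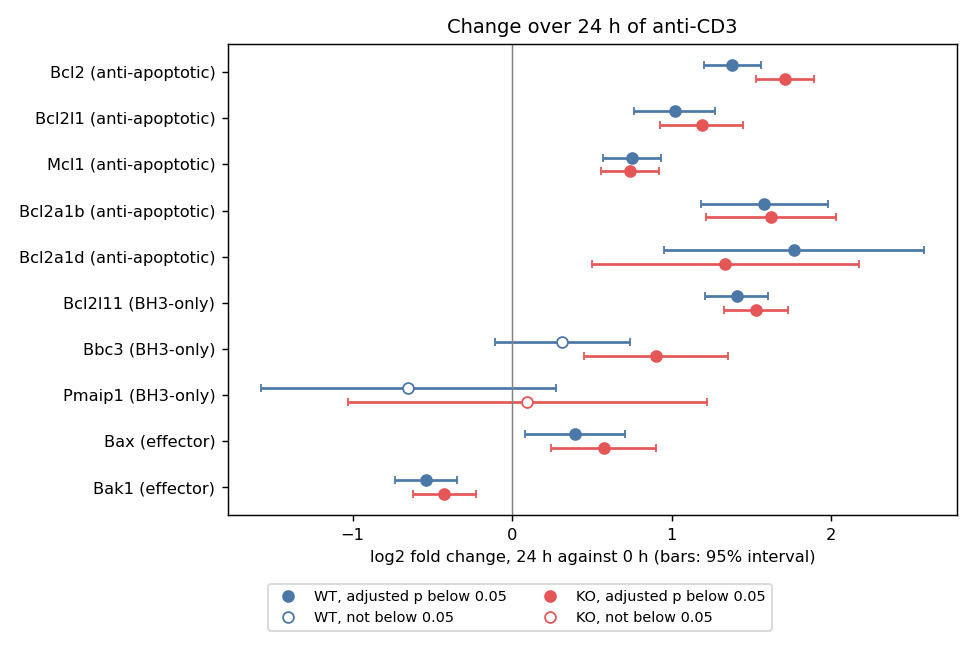
log2 fold change of each gene at 24 h against 0 h (x axis) in WT and KO; points are edgeR estimates, bars their 95% intervals, and filled points have an adjusted p below 0.05. The estimates run from 1.77 for Bcl2a1d to -0.65 for Pmaip1 in WT, and the intervals of WT and KO overlap for every gene.

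Per length of exon, Mcl1 led the family in every group. Levels between genes were set side by side as CPM per kilobase of exon in the GENCODE M21 annotation. In WT 0 h Mcl1 had 115 ± 16.1 CPM per kilobase (SD, n = 3), followed by Bak1 with 54.5 ± 5.81, Bcl2 with 19.9 ± 1.45 and Bax with 14.4 ± 1.60. The libraries of these 4 genes did not overlap in level. Bcl2a1b and Bcl2l11 followed at 10.1 ± 0.859 and 9.69 ± 0.744 CPM per kilobase and overlapped, as did Bbc3 and Bcl2l1 at 6.89 ± 1.73 and 6.64 ± 0.366, and Bcl2a1d and Pmaip1 at 2.44 ± 0.989 and 1.54 ± 0.414. At 24 h in WT Bcl2, at 51.7 ± 1.28 CPM per kilobase, stood above Bak1, at 37.4 ± 2.33, with no overlap, and Mcl1 stood at 193 ± 12.5. Bcl2a1b was at 30.3 ± 1.87, Bcl2l11 at 25.7 ± 2.85, Bax at 19.0 ± 0.856 and Bcl2l1 at 13.5 ± 1.24 CPM per kilobase. Bbc3 and Bcl2a1d overlapped there at 8.49 ± 0.549 and 8.27 ± 2.35, and Pmaip1 was lowest at 0.967 ± 0.307. The levels of the A1 copies leave out reads that align to several copies.

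**Figure D3:**
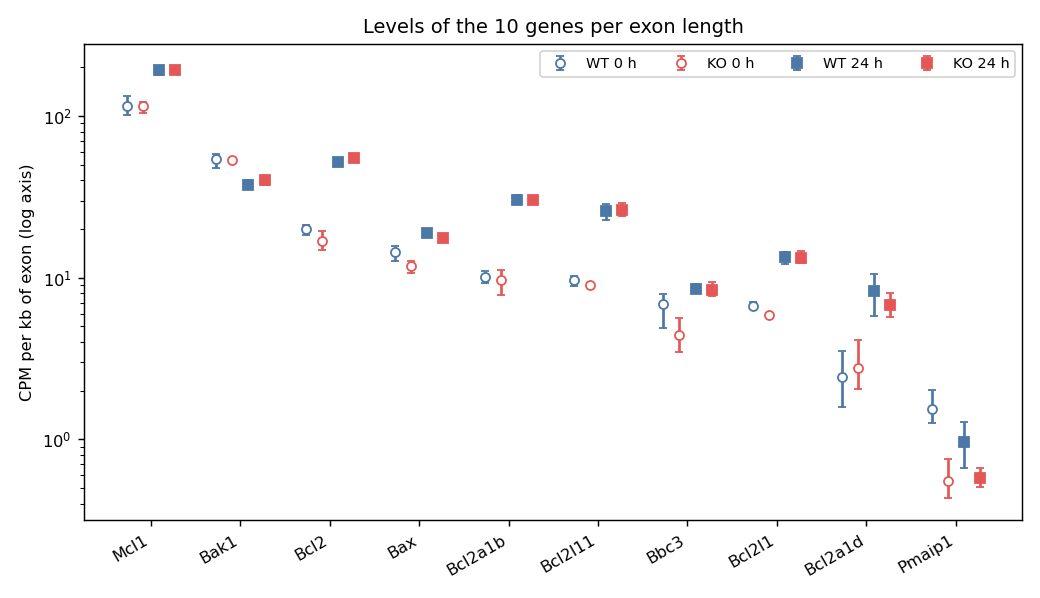
Level of each gene in CPM per kilobase of exon (log y axis), ordered by the mean in WT 0 h; points are group means and bars run from the lowest to the highest of 3 libraries. Mcl1 is highest in all 4 groups, and Bcl2 passes Bak1 from 0 h to 24 h.

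Loss of Sirt2 changed none of the 10 genes past the threshold. Ex vivo, 0 of 10 passed by edgeR's quasi-likelihood test, where 0.346% of all genes passed (38 of 10981), 0.118% as higher and 0.228% as lower in KO. DESeq2 called 0 of the 10 as well, and 3 had an unadjusted p below 0.05 in edgeR, as had 878 of all genes. The median log2 fold change of the 10 genes in KO was -0.14, against 0.00378 for all genes. At 24 h 0 of 10 passed by either tool, where 0.273% of all genes passed, 0.182% as higher and 0.0911% as lower. There 0 of the 10 and 775 of all genes had an unadjusted p below 0.05, and the median was -0.01 for both.

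The widest difference between genotypes was in Pmaip1 ex vivo. Ex vivo WT libraries held 3.63, 3.46 and 5.50 CPM and KO libraries 1.18, 1.29 and 2.07 CPM, so all KO libraries lay below all WT libraries. The log2 fold change was -1.51 (95% interval -2.50 to -0.51, edgeR adjusted p = 0.281), and the counts behind it were 8 to 11 reads per KO library and 21 to 44 reads per WT library. After stimulation they held 1.81, 2.64 and 3.48 CPM and 1.83, 1.40 and 1.49 CPM, which overlapped (log2 -0.76, 95% interval -1.82 to 0.30, edgeR adjusted p = 0.846). Bbc3, the other BH3-only p53 target among the 10, had a log2 fold change of -0.61 ex vivo (95% interval -1.06 to -0.16, edgeR adjusted p = 0.382), and its groups overlapped. It was -0.02 at 24 h. Bcl2 had -0.24 ex vivo (95% interval -0.42 to -0.06, edgeR adjusted p = 0.382) and 0.09 at 24 h (95% interval -0.08 to 0.26), with overlap at both times.

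For the other genes the intervals bound how far the genotypes could differ in these libraries. Mcl1 had a log2 fold change of 0.01 ex vivo (95% interval -0.18 to 0.19) and -0.01 at 24 h (-0.19 to 0.17). Bak1 had -0.02 ex vivo (-0.21 to 0.17) and 0.09 at 24 h (-0.11 to 0.29), and Bcl2l11 had -0.10 (-0.30 to 0.10) and 0.02 (-0.17 to 0.21). For Bcl2l1 all ex vivo KO libraries lay below all WT ones (log2 -0.18, -0.45 to 0.08), without passing. Such separation, seen in Bcl2l1 and Pmaip1, or 2 of the 10 genes, was found in 12.4% of all genes. At 24 h it was found in 0 of the 10 genes and in 12.9% of all. Bax had -0.29 ex vivo (-0.61 to 0.04) and -0.11 at 24 h (-0.43 to 0.21). Bax and Bbc3 lie on chromosome 7 as Sirt2 does, at 16.7 and 12.4 megabases from it. The intervals were wider for the A1 copies, with -0.04 (-0.48 to 0.39) and 0.00 (-0.38 to 0.37) for Bcl2a1b, and 0.14 (-0.75 to 1.04) and -0.29 (-1.05 to 0.47) for Bcl2a1d. CD8 T cell markers summed to 17.3 to 18.5 CPM in WT 0 h and 30.7 to 35.7 CPM in KO 0 h. This sum was almost all Cd8b1 (17.4 ± 0.391 and 31.4 ± 1.82 CPM), which passed as higher in KO. Cd8a had 15 reads over the WT 0 h and 22 over the KO 0 h libraries, too few to be tested. NK cell markers summed to 46.4 to 51.6 and 63.7 to 79.2 CPM. That sum was mostly Nkg7 and Klrb1c, the 2 NK cell markers tested, and 0 of them passed. The B cell marker Cd22 was lower in KO, with 160 reads over the WT 0 h and 27 over the KO 0 h libraries (log2 -2.49, edgeR adjusted p = 0.0118). The other 2 tested B cell markers, Cd79a and Cd79b, did not pass, and the median of the 3 was 0.04. Mean ex vivo levels, with WT first, were 13.1 and 13.5 CPM for Cd79a, and 4.21 and 5.32 CPM for Cd79b. The lower level of Cd22 was therefore not shared by these genes. Of the 12 genes of RNA quality and isolation stress 1, Zfp36, was lower in KO (1279 ± 56.4 against 924 ± 70.2 CPM, log2 -0.47, edgeR adjusted p = 0.00136), and the list median was -0.27. The part of these marker and stress genes in the ex vivo values was not tested. How far Cd22 and Zfp36 lie from Sirt2 was not determined here.

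**Figure D4:**
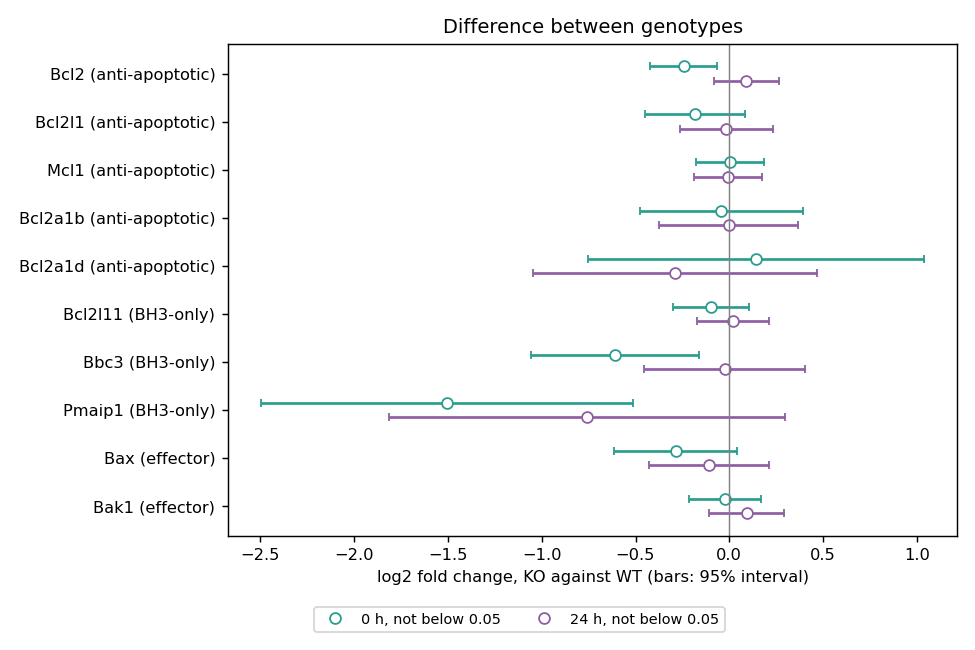
log2 fold change of each gene in KO against WT (x axis) at 0 h and 24 h; points are edgeR estimates, bars their 95% intervals, and open points have an adjusted p not below 0.05. All 20 points are open, and the intervals at 0 h of Bcl2, Bbc3 and Pmaip1 lie below 0.

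The interaction of genotype and time passed in 0 of the 10 genes by edgeR and by DESeq2, against 0.00911% of all genes (1 of 10981) by edgeR. Of the 10 genes 1, Bcl2, had an unadjusted p below 0.05, as had 575 of all genes.

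Of 16 further genes of the BCL2 family 9 were tested, and Bcl2l10 and Bok had no read in any library, while Bcl2a1a, Bcl2a1c, Bik, Hrk and Bcl2l15 had too few to be tested. Over time 0 rose and 1 fell in each genotype, with a list median of -0.08 in WT and -0.42 in KO, where 40.7% and 40.4% of all genes passed in either direction. In WT it was Bcl2l14, which went from 42 reads over the 3 WT 0 h libraries to 0 at 24 h, a level at least 13.9-fold lower (against 3 counts over the group; edgeR adjusted p = 0.000115). In KO it was Bcl2l12 (log2 -0.61, SE 0.242, edgeR adjusted p = 0.0409), which missed the threshold by DESeq2, with no filter on low counts, without KO 0 h replicate 2 (log2 -0.38) and without KO 0 h replicate 3, KO 24 h replicate 2 or KO 24 h replicate 3. Between genotypes 0 of the 9 passed by edgeR or DESeq2, and 1 at 0 h and 2 at 24 h had an unadjusted edgeR p below 0.05. Bnip3l, which acts in the removal of mitochondria, and Bcl2l13 had the highest levels, and their log2 fold changes in KO ran from -0.06 to 0.13. Bmf, a BH3-only gene with 1 to 47 reads per library, had a log2 fold change in KO against WT of -1.56 at 24 h (95% interval -2.60 to -0.51, edgeR adjusted p = 0.352) and one of -1.13 over time in KO (edgeR adjusted p = 0.0868). It was named after its values were seen.

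For the list of the apoptosome and caspases the share of genes that passed over time was near that of all genes (40.7% in WT and 40.4% in KO). Of 21 genes of the apoptosome, the caspases and their inhibitors, 3 rose and 4 fell in WT, and 3 rose and 5 fell in KO, with medians of -0.07 and -0.02. Cflar, which encodes the caspase-8 inhibitor FLIP, rose from 81.2 ± 10.0 to 144 ± 13.4 CPM in WT (log2 0.82, SE 0.103, edgeR adjusted p = 5.80e-09). Cycs, which encodes cytochrome c, rose from 54.5 ± 7.79 to 86.1 ± 7.11 CPM in WT (log2 0.66, SE 0.113, edgeR adjusted p = 5.78e-06). Birc3, which encodes an inhibitor of apoptosis protein, rose by 0.62 in KO (SE 0.0955, edgeR adjusted p = 5.94e-07). In WT Birc3 went from 77.8 ± 0.998 to 116 ± 6.02 CPM. Birc5, which encodes survivin, fell by 1.53 in KO (SE 0.433, edgeR adjusted p = 0.00379) and by 0.96 in WT (SE 0.399, edgeR adjusted p = 0.0488). The WT call of Birc5 was lost when any single WT 0 h replicate was left out, and without WT 24 h replicate 1 or 3 (edgeR, highest adjusted p = 0.165). Between genotypes 0 of the 21 passed by edgeR or DESeq2, and 0 at 0 h and 2 at 24 h had an unadjusted edgeR p below 0.05. Casp8, the initiator caspase of death receptors, had a log2 fold change in KO of 0.17 at 0 h and 0.21 at 24 h, and Cflar one of 0.11 and -0.05.

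Bbc3, Pmaip1 and Bax are known p53 targets, and further genes of that pathway were tested beside them. Of 19 tested genes of this list 10 rose and 3 fell in WT, and 9 rose and 4 fell in KO, with medians of 0.35 and 0.26. The shares over all genes were 20.2% and 20.5% in WT, and 19.4% and 21% in KO. In each genotype 6 genes of the list did not pass. Mdm2, a p53 inhibitor and target, was 1 of these, with a log2 fold change of 0.09 in WT and 0.17 in KO. Mdm2 was named outside the rule given below for the lists. Cdkn1a, which encodes the cell cycle inhibitor p21, rose from 1.99 ± 0.537 to 53.3 ± 4.70 CPM in WT (log2 4.75, SE 0.226, edgeR adjusted p = 2.45e-22) and from 1.93 ± 0.893 to 53.8 ± 6.83 CPM in KO (log2 4.68, SE 0.226, edgeR adjusted p = 4.61e-22). Sesn2, which encodes a stress-induced sestrin, rose by 2.77 in WT and 2.83 in KO. Phlda3 rose by 2.64 in WT and 2.91 in KO. Perp had no read in WT 0 h and 39 reads in WT 24 h, a level at least 13.1-fold higher (against 3 counts over the group; edgeR adjusted p = 0.000149), and rose in KO too (edgeR adjusted p = 0.00686). Trp53 itself, which encodes p53, fell from 455 ± 25.9 to 335 ± 21.9 CPM in WT (log2 -0.44, SE 0.0859, edgeR adjusted p = 3.68e-05). Between genotypes 0 of the 19 passed by edgeR or DESeq2, and 1 at 0 h and 2 at 24 h had an unadjusted edgeR p below 0.05. Trp53 had a log2 fold change in KO of -0.10 at 0 h and -0.11 at 24 h, and Btg2, an antiproliferative target, one of 0.03 and -0.08.

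Signals that are known to act on the BCL2 family went both ways with stimulation. Of 21 tested genes of cytokine receptors, their kinases and transcription factors, 12 rose and 7 fell in each genotype, with medians of 0.41 in WT and 0.61 in KO. Of all genes 20.2% rose and 20.5% fell in WT, and 19.4% and 21% in KO. Il2ra, for the alpha chain of that cytokine receptor which binds interleukin 2, rose from 202 ± 18.1 to 738 ± 87.9 CPM in WT (log2 1.87, SE 0.0928, edgeR adjusted p = 1.28e-21). Il2 rose from 0.224 ± 0.254 to 4.25 ± 0.726 CPM in WT (log2 4.07, SE 0.679, edgeR adjusted p = 2.84e-06). This rested on 5 reads over the WT 0 h and 91 over the WT 24 h libraries. With a library left out the log2 change was 3.52 to 5.49. Stat5a, a transcription factor downstream of that receptor, rose by 1.39 in WT, and Rel, an NF-kappaB subunit, by 1.30 in WT. Il4ra rose by 1.62 in KO, and in WT from 211 ± 23.4 to 493 ± 19.5 CPM. Among the genes that fell were Foxo1, a transcription factor, from 798 ± 22.2 to 345 ± 26.3 CPM in WT (log2 -1.21, edgeR adjusted p = 6.93e-17), and Il7r, the receptor of a survival cytokine, from 297 ± 43.7 to 130 ± 9.26 CPM in WT (log2 -1.19, edgeR adjusted p = 5.78e-15). These genes were named after their values were seen. Pim2, a survival kinase gene, rose by 1.62 in KO, and in WT from 75.5 ± 3.72 to 182 ± 9.63 CPM. Pim2 was the single gene of these pathway lists that passed between genotypes. Ex vivo it had 75.5 ± 3.72 CPM in WT and 55.3 ± 5.25 CPM in KO (log2 -0.45, SE 0.101, edgeR adjusted p = 0.0209). That call was lost without WT 0 h replicate 1 or 3 and without KO 0 h replicate 1 or 2 (edgeR, highest adjusted p = 0.134), and with only the groups compared (edgeR adjusted p = 0.110), and at 24 h the log2 fold change was -0.11. DESeq2 also called Il4ra, higher in KO at 24 h (log2 0.33, DESeq2 adjusted p = 0.0148), where edgeR did not (edgeR adjusted p = 0.0942) and called 0 of the 21, with 3 at an unadjusted p below 0.05. Il2rg and Jak1, for a shared cytokine receptor chain and its kinase, had log2 fold changes of -0.02 and -0.06 there.

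Of 10 genes that act on the stability of MCL1 and BIM, 3 rose and 3 fell in WT, and 4 rose and 3 fell in KO, with medians of -0.01 and 0.06, against 40.7% and 40.4% of all genes in either direction. Usp9x, which encodes a deubiquitinase of MCL1, rose by 0.55 in WT and 0.63 in KO, and Fbxw7, a ubiquitin ligase subunit that acts on MCL1, by 0.44 and 0.90. Dynll1, the dynein light chain that binds BIM, fell by 1.07 in WT and 0.72 in KO. Mapk3, which encodes the kinase ERK1, fell by 0.76 and 0.78. Each of these passed in its comparison (edgeR, highest adjusted p = 0.0159, for Fbxw7 in WT). The WT call of Fbxw7 was lost without WT 0 h replicate 1 and without WT 24 h replicate 2 or 3 (edgeR, highest adjusted p = 0.0600), and that of Huwe1 (log2 0.24) without WT 0 h replicate 1 and without WT 24 h replicate 1 or 2 (edgeR, highest adjusted p = 0.110). Of these 10 genes 0 passed between genotypes by edgeR or DESeq2, with 3 at 0 h and 2 at 24 h at an unadjusted edgeR p below 0.05. Huwe1, a ubiquitin ligase of MCL1, and Usp9x had log2 fold changes in KO of -0.19 and -0.22 at 0 h and of -0.07 and -0.14 at 24 h. The members of these lists were chosen with earlier results of the same libraries known.

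**Figure D5:**
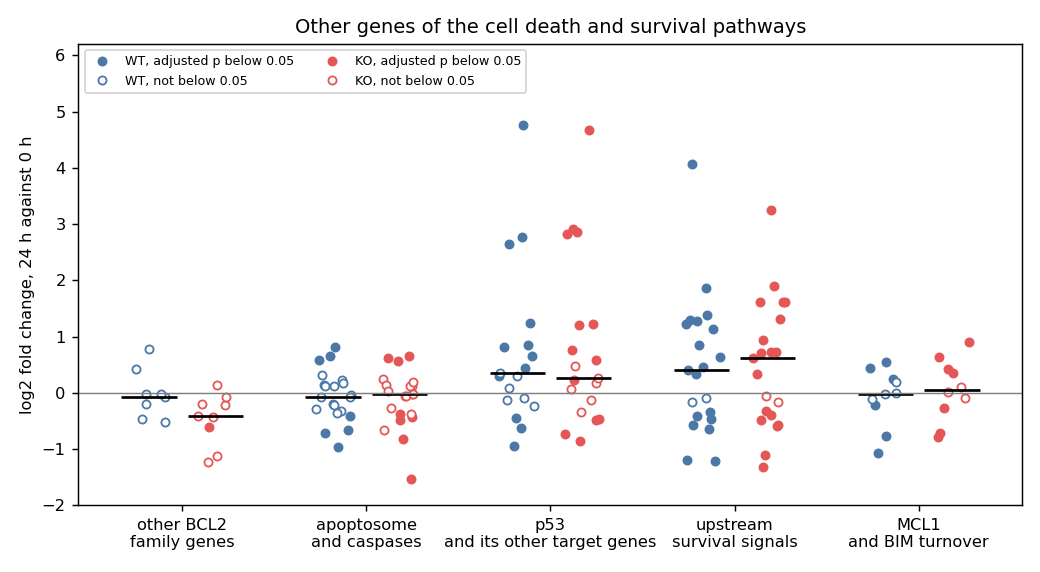
log2 fold change at 24 h against 0 h (y axis) of the tested genes of 5 further lists (x axis) in WT and KO; each point is a gene, filled where the adjusted p is below 0.05, and black lines are list medians. Bcl2l14 and Perp in WT are not drawn, since 1 of the groups had no read, but count in the medians, which run from -0.42 to 0.61.

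Among all tested genes, the profiles nearest to the family members with the highest and the lowest estimated log2 fold change over time in WT were found by the root mean square difference of centred log2 CPM over the 12 libraries. Nearest to Bcl2a1d were Rhoq (0.264), Ccdc50 (0.287) and Spred1 (0.290). Nearest to Pmaip1 were Pepd (0.355), Sergef (0.363) and Abhd4 (0.367). The change of Pmaip1 did not pass the test. Both members are among the least abundant of the 10 genes, and the distances are given as a description.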

How the data were processed

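The deposited values were raw read counts per gene symbol, 1 table per library. Per the submitters' processing notes, STAR 2.6.0c and DESeq were used with hg19, a human build, although the symbols are murine; which build was really used is therefore unknown. The sources used here do not name a counting program, an annotation or a strandedness. The 5 closing entries that name no gene were left out. They held 22.8% to 35.4% (no feature), 0.412% to 0.576% (ambiguous) and 25.7% to 30.9% (aligned in several places) of all reads listed. Per the labels' protocols, total RNA libraries were made from ribosomal RNA-depleted RNA.

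The filter filterByExpr with the 4 groups set which genes were tested (minimum count 10, minimum total 15). Counts were scaled by TMM factors and tested with edgeR 4.0.16 (R 4.3.3), quasi-likelihood with robust dispersion, in 1 fit of 4 groups without covariates, adjusted by Benjamini-Hochberg over 10981 genes. Intervals of 95% come from the fit. An edgeR adjusted p is that value throughout. The procedure was tested on simulated data. Within each group, all replicates differed from each other beyond counting noise (chi-square per gene 3.15 to 14.7). Titles gave the group and replicate number. Alternatives were DESeq2 1.42.0, other size factors, filters, dispersion, samples and library sizes, a replicate block, and each library left out.

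The members and lists were chosen with earlier results of these data known. All 10 members were described. Of each other list, up to 4 passing genes with the largest change per comparison were named, or 2 with the highest level where none passed, except a few genes not reported here. Exon lengths and overlaps are from GENCODE M21 (GRCm38), and promoters from RefSeq.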

Additional observations from a re-analysis of the deposited data

How the results depend on the processing

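Across 8 alternative settings (7 for the interaction), 383 of 384 log2 fold changes of the BCL2 family genes kept their side of the threshold, and 356 of 360 did when a library was left out. The exceptions were all Bax over time in WT. With no filter on low counts its log2 fold change was 0.42 (edgeR adjusted p = 0.0505) and 6 family genes in place of 7 were higher there. Leaving out libraries gave 6 to 7 higher in WT, 8 in KO, 1 lower in each, and 0 between genotypes and for the interaction. Pmaip1 was not tested with a minimum count of 30, nor over time in KO with only the groups compared. Over all genes, KO against WT at 0 h called 38, but 59 with no filter on low counts, 24 with only the groups compared, 50 by DESeq2, and 17 to 33 with a library left out. At 24 h it called 30, 45 by DESeq2, 43 with no filter on low counts, and 14 to 30 with a library left out. The interaction called 1 gene, but 3 with no filter on low counts and 0 with RLE size factors, a minimum count of 30, a replicate block, Rn45s left out or dispersion not robust, and 0 to 1 with a library left out. Over time 4470 genes passed in WT and 4435 in KO, and 3863 to 4179 and 3697 to 4117 with a library left out. The cause was not tested.

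It is not known whether the replicate numbers of the titles pair the libraries. Deviations from the group means correlated at -0.0884 to 0.0934 over 18 pairs of same-numbered libraries. For pairs with other numbers the range was -0.131 to 0.129. Of 12 libraries 7 correlated best with their own number, so these values do not exclude a pairing. A replicate block left the counts of family genes at 7 higher and 1 lower in WT and 8 and 1 in KO over time, and at 0 between genotypes, with 32 genes of all called at 0 h and 28 at 24 h. Depth limits Pmaip1 and Bcl2a1d most.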

Other observations

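The balance within the family is given as values with no test, since the sums were chosen after the data were seen. The 5 anti-apoptotic genes made up 61.7% to 65.7% of the summed CPM per kilobase of the 10 genes in WT 0 h, 62.8% to 66.7% in KO 0 h, 76.4% to 76.5% in WT 24 h and 75.7% to 76.7% in KO 24 h. Their sum went from 154 ± 14.8 to 297 ± 13.5 CPM per kilobase in WT (SD, n = 3), while that of the 5 pro-apoptotic genes was 87.0 ± 6.78 at 0 h and 91.5 ± 3.82 at 24 h. In KO the corresponding sums were 150 ± 10.1 and 297 ± 8.39, and 79.5 ± 2.34 and 92.5 ± 4.01. Mcl1 carried most of the anti-apoptotic sums. The ratio of Bax to Bak1, per length, was 0.265 ± 0.00599 in WT 0 h and 0.508 ± 0.0291 in WT 24 h, and 0.220 ± 0.0240 and 0.441 ± 0.0550 in KO. The ratio of Bcl2 to Bcl2l11, per length, was 2.05 ± 0.0492 in WT 0 h and 2.02 ± 0.213 in WT 24 h, and 1.86 ± 0.253 and 2.12 ± 0.182 in KO. That of Mcl1 to Bcl2 was 5.80 ± 1.20 and 3.74 ± 0.300 in WT, and 6.88 ± 0.716 and 3.50 ± 0.253 in KO.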
